A study of Homo sapiens with 42 samples.

Results

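The regulators of mitochondrial biogenesis described here were 10 nuclear genes. They included the coactivator PPRC1 and the DNA-binding factors ESRRA, NRF1, GABPA and YY1. The others were TFAM, TFB2M and POLRMT, which work on mitochondrial DNA, TFB1M, which methylates a mitochondrial rRNA, and the mitochondrial carrier UCP2. The members were found by exact gene symbol among the 57353 gene names of a count table, where all 10 were present. All 10 were also among the 12939 genes that passed the filter on low counts, a mean of at least 1 count and at least 1 CPM (counts scaled to the library total) over all libraries. Their raw counts were 78 to 10716 per library.

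RNA was sequenced in 21 MOLM-13 cultures. MOLM-13 is a line of acute myeloid leukemia (AML) with an FLT3 internal tandem duplication, which keeps this receptor kinase active, and its genotype is given as WT in the labels. Treatment lasted 12 hours, in RPMI medium or in hBMSC-CM, which is RPMI mixed with medium conditioned by HS-5 cells, a human bone marrow stromal line. In RPMI the groups were vehicle (DMSO), the FLT3 inhibitor quizartinib (AC220) at 3 nM, and combo, which was quizartinib at 3 nM with the mTOR inhibitor everolimus at 10 nM. In hBMSC-CM the groups were vehicle, quizartinib at 3 nM, everolimus at 10 nM, and combo. There were 3 cultures in each of these 7 conditions. Poly(A) RNA of the whole lysate (input) and of heavy polysomes, the part of a sucrose gradient that holds messages loaded with several ribosomes, was sequenced for every culture, which gave 42 libraries. The study's checklist calls its replicates biological. The labels number the cultures of a condition without saying that they were grown independently, so p-values measure the spread between these samples.

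Mitochondria have their own small genome, but nearly all of their proteins are encoded in the nucleus, and making more mitochondria therefore needs both genomes to be expressed together. Coactivators of the PGC-1 family, to which PPRC1 belongs, bind factors such as ESRRA and NRF1 at the promoters of nuclear genes for respiratory chain subunits and for the proteins that copy and transcribe mitochondrial DNA. In the mitochondrion, TFAM packages the DNA and marks its promoters, TFB2M opens the promoter, and the polymerase POLRMT makes the transcript. AML cells are known for a strong dependence on mitochondrial respiration.

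Total counts were 19.4 M to 38.8 M per library. Sums over marker genes are in CPM by library size alone. The 9 markers of MOLM-13 summed to 1333 to 2143 CPM in input, and each was detected in every condition. Of 15 stromal genes, 7 or 8 had no count in the input of a condition. Libraries with the same number deviated together in the 6 conditions other than everolimus alone (correlation across genes of 0.284 to 0.658 in input and 0.153 to 0.715 in polysome libraries, 45 pairs each). The everolimus libraries did not share these deviations (-0.059 to 0.00228 in input, 18 pairs), and their replicates lay closer together, with a median SD of 0.098 log2 units over all genes in input against 0.20 to 0.31 in the other conditions. Where the everolimus group is compared with another, the drug and this difference between libraries cannot be told apart. A fit with the replicate number as a block within each fraction and without the everolimus libraries is called the blocked fit below. It was chosen after the data were seen, and its value is given where it changed a call of a member. It also called more of all genes, so its counts are set beside its own share of all genes.

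In the input of vehicle-treated cells in RPMI, the 10 genes were ordered by CPM per kilobase of exon, a scale on which genes of unequal length can be compared. UCP2, a carrier of the mitochondrial inner membrane, was the highest at 34.5 ± 0.992 CPM per kb (SD, n = 3), above 90.2% of 12900 genes. POLRMT followed at 25.5 ± 3.83, PPRC1 at 21.4 ± 3.80 and ESRRA at 18.3 ± 1.23 CPM per kb. These were followed by YY1 at 10.9 ± 1.73, TFB1M at 9.19 ± 0.456, TFAM at 6.78 ± 1.84 and TFB2M at 5.40 ± 1.55 CPM per kb. NRF1 and GABPA were the lowest, at 3.48 ± 0.228 and 3.34 ± 0.459 CPM per kb. The replicates of UCP2 lay apart from those of POLRMT, those of ESRRA from those of YY1, and those of TFB1M from those of TFAM. All other neighbours in this order overlapped. Exon lengths came from GENCODE v44, an annotation release other than that of the counts.

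The upstream 250 bases of the members' promoters were searched on both strands in the RefSeq promoter table (GRCh38.p14), which held 9 of the 10 genes and not NRF1. The letters GCGCATGC, a core that NRF1 is known to bind, were present in ESRRA, POLRMT, TFB1M and TFB2M and in 2.63% of 35116 promoters. The letters CCGGAAG, bound by GABP and other ETS factors, were present in GABPA, POLRMT and TFB1M and in 8.52% of promoters. AANATGGC (YY1), AAGGTCA (bound by ERR receptors) and CACGTG (E-box) were each present in 0 of the 9 members and in 3.86%, 3.44% and 6.34% of promoters. The sites of the first 2 motifs are shown for every member that holds one, so that their letters can be compared. Each is written 5′ to 3′ on the strand of its gene, with the matched letters in capitals, and the distance is from the first matched base to the RefSeq start. The match of ESRRA, of TFB2M and of every ETS site is to the reverse complement (GCATGCGC or CTTCCGG). A GCGCATGC match and its reverse complement overlap in the proximal site of POLRMT and in the site of TFB1M, where the forward match is capitalised.
ESRRA, NRF1 letters, 29 bases before the start, chr11:64305485-64305512: cccctgctttGCATGCGCacggccggcc
POLRMT, NRF1 letters, 24 bases before the start, chr19:633544-633571: ggcggcgcggGCGCATGCgcaggcgcgg
POLRMT, NRF1 letters, 132 bases before the start, chr19:633652-633679: gcgtccaccgGCGCATGCcttcgcgcct
TFB1M, NRF1 letters, 132 bases before the start, chr6:155314599-155314626: gcaggacttaGCGCATGCgctctcagca
TFB2M, NRF1 letters, 15 bases before the start, chr1:246566262-246566286: tccgctgttcGCATGCGCaggctct
GABPA, ETS letters, 66 bases before the start, chr21:25734896-25734922: ctccgctctaCTTCCGGccctggctcc
POLRMT, ETS letters, 93 bases before the start, chr19:633614-633640: tgggagtctaCTTCCGGctggggtttc
TFB1M, ETS letters, 85 bases before the start, chr6:155314553-155314579: gcggtcatcgCTTCCGGtgggataggt
These matches describe letters only, and no binding was measured.

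Upon FLT3 inhibition in RPMI, 6 of the 10 genes fell in input and none rose. PPRC1 fell the most, followed by POLRMT, TFAM and TFB2M, while ESRRA and TFB1M fell by smaller amounts. NRF1, GABPA, YY1 and UCP2 were not called. This comparison of quizartinib with vehicle asks which messages follow FLT3 activity in the absence of stromal medium. In it 34.6% of all genes tested were called at an adjusted p under 0.05, and 18% were called lower. The median log2 change was -0.64 over the 10 members and 0.08 over all genes tested. Limma voom also called 6 members, DESeq2 called 5 (all but TFB1M), and the blocked fit called 6 members and 54.6% of all genes. In CPM, which is a share of the reads of a library, fewer cells with a message, less of it per cell and more of other RNA cannot be told apart.

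PPRC1, a large nuclear coactivator of the PGC-1 family (chromosome 10, 102132994 to 102150333, plus strand), was at 108, 129 and 154 CPM in the 3 vehicle cultures in RPMI. Upon quizartinib treatment it was at 16.5, 19.4 and 24.2 CPM. All 3 treated cultures were below all 3 vehicle cultures. The log2 change was -2.70 (SE 0.32, adjusted p = 2.9e-08), a 6.52-fold lower level. Over 21 refits that each left out 1 culture, the change stayed between -2.87 and -2.57.

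Among the DNA-binding factors, only ESRRA was called in this comparison. ESRRA, an orphan nuclear receptor that PGC-1 coactivators bind, was at 58.8, 58.9 and 52.2 CPM in vehicle cultures in RPMI and at 31.5, 37.4 and 38.1 CPM under quizartinib. The groups did not overlap, and the log2 change was -0.67 (SE 0.23, adjusted p = 0.023). The call was lost without RPMI quizartinib replicate 1 and without RPMI vehicle replicate 1 or 2, with adjusted p up to 0.096 over all alternatives. ESRRA (chromosome 11, 64305497 to 64316743, plus strand) shares 284 exonic bases with TRMT112 on the other strand, and the sources do not say if counting was by strand. NRF1, a factor of respiratory gene promoters, changed by -0.12 (SE 0.18, adjusted p = 0.65). GABPA, the DNA-binding subunit of GABP, changed by 0.07 (SE 0.30, adjusted p = 0.89). YY1, a zinc finger factor that can activate or repress its targets, changed by 0.07 (SE 0.16, adjusted p = 0.78). The intervals of these changes, plus or minus 2 SE, were -0.47 to 0.24 for NRF1, -0.53 to 0.67 for GABPA and -0.26 to 0.39 for YY1.

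The factors that work on mitochondrial DNA, POLRMT, TFAM and TFB2M, all fell in RPMI. POLRMT, the mitochondrial RNA polymerase (chromosome 19, 617221 to 633537, minus strand), went from 107, 144 and 136 CPM to 40.3, 53.4 and 43.0 CPM, a log2 change of -1.50 (SE 0.39, adjusted p = 0.0025). TFAM, which packages mitochondrial DNA (chromosome 10, 58385345 to 58399220, plus strand), went from 44.8, 37.2 and 25.5 CPM to 14.6, 16.5 and 10.0 CPM, a log2 change of -1.39 (SE 0.29, adjusted p = 0.00028). The groups of neither gene overlapped. TFB2M, the initiation factor of the polymerase (chromosome 1, 246540561 to 246566261, minus strand), was the lowest in CPM of the members, at 11.3, 11.1 and 6.43 CPM in vehicle cultures and 5.29, 4.28 and 2.86 CPM under quizartinib. Its log2 change was -1.22 (SE 0.34, adjusted p = 0.0049), and its groups did not overlap.

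TFB1M, a paralog of TFB2M that methylates the small rRNA of the mitochondrial ribosome (chromosome 6, 155256134 to 155314493, minus strand), was at 38.2, 39.4 and 35.7 CPM in vehicle cultures in RPMI. Under quizartinib it was at 21.7, 20.2 and 32.3 CPM, with no overlap. The log2 change of -0.61 (SE 0.24) passed the threshold narrowly (adjusted p = 0.048), and 17 of 21 refits without 1 culture lost the call. TFB1M shares 1264 exonic bases with TIAM2 on the other strand. UCP2 (chromosome 11, 73974672 to 73982843, minus strand) was at 98.2, 95.6 and 92.7 CPM in vehicle cultures and at 99.7, 105 and 99.6 CPM under quizartinib, a log2 change of 0.09 (SE 0.31, adjusted p = 0.86).

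The sum over the stromal genes rose with quizartinib in RPMI, where no conditioned medium was present. Most of this rise was COL1A1. The 15 stromal genes summed to 0.909 to 4.99 CPM in vehicle input and to 9.81 to 41.7 CPM under quizartinib. Without COL1A1 these sums were 0.546 to 2.33 and 0.869 to 2.83 CPM, which overlapped. COL3A1, LUM and POSTN were at 0 in every library. The 9 MOLM-13 markers summed to 1333 to 1451 CPM in vehicle and 1552 to 1624 CPM under quizartinib. The part of these shifts in the members' changes was not tested.

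**Figure D1:**
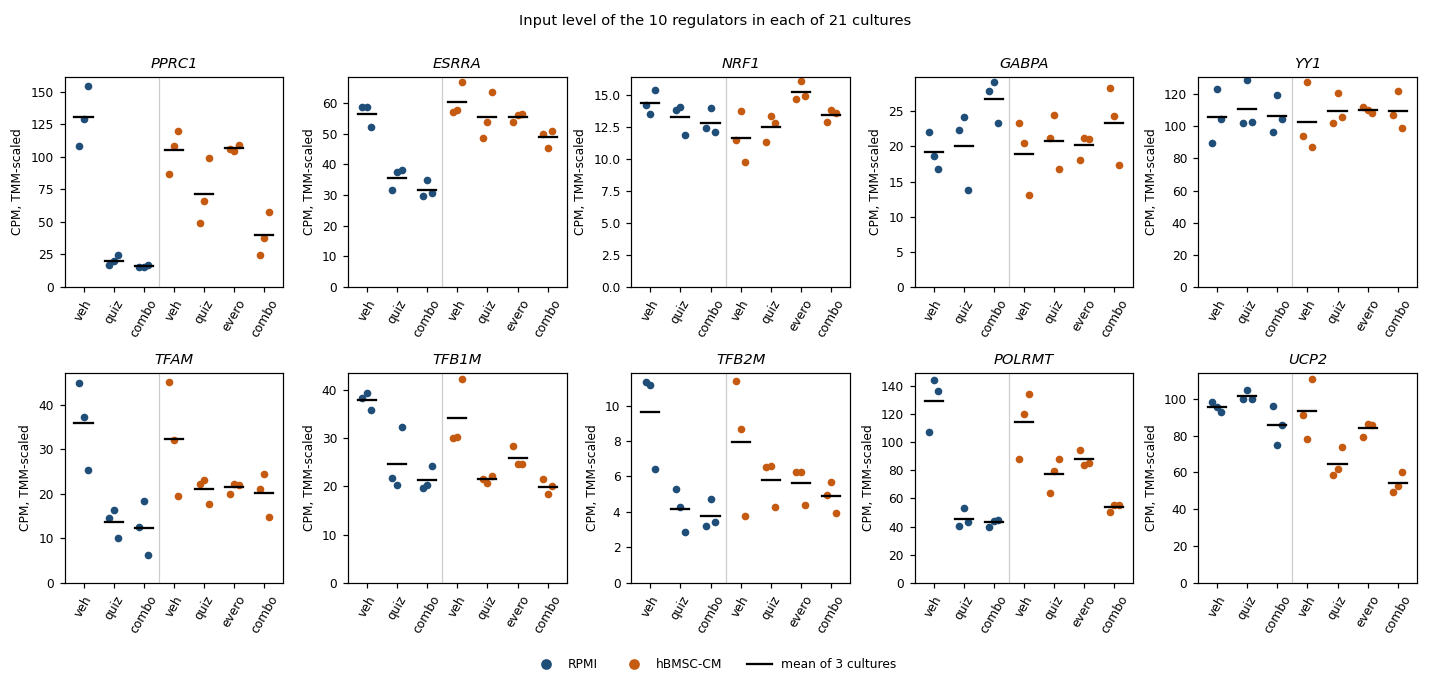
Input level of each gene in CPM (TMM-scaled, linear axis from 0) for 3 cultures in each of 7 conditions, 1 point per culture, with RPMI in blue, hBMSC-CM in orange and the mean as a bar. PPRC1 lay at 108 to 154 CPM in RPMI vehicle and at 16.5 to 24.2 CPM in RPMI quizartinib, while NRF1 stayed between 9.71 and 16.1 CPM in all 21 cultures.

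In the presence of hBMSC-CM, the log2 changes upon the same FLT3 inhibition were smaller for PPRC1, POLRMT, TFAM and ESRRA. This did not hold for UCP2, nor clearly for TFB1M. For ESRRA, TFB1M and TFB2M the difference between the media was called neither without the block nor in the blocked fit. The median log2 change over the 10 members was -0.49, against -0.64 in RPMI, and 0.01 over all genes tested. Of the 10 genes, 0 were called by edgeR, by limma voom or by DESeq2. At an unadjusted p under 0.05, edgeR gave 2, TFAM and TFB1M. In this comparison 12.3% of all genes were called. PPRC1 was at 86.4, 108 and 120 CPM with vehicle and at 48.9, 65.8 and 98.7 CPM with quizartinib. These groups overlapped, although each treated culture was below the vehicle culture of its number, and the log2 change was -0.56 (SE 0.30, adjusted p = 0.23).

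The blocked fit called 5 of the 10 genes for quizartinib in hBMSC-CM, all lower, beside 34.9% of all genes. They were PPRC1 at -0.57 (SE 0.15, adjusted p = 0.0027), TFAM at -0.53 (SE 0.18, adjusted p = 0.021), TFB1M at -0.62 (SE 0.17, adjusted p = 0.0039), POLRMT at -0.52 (SE 0.13, adjusted p = 0.0019) and UCP2 at -0.49 (SE 0.14, adjusted p = 0.0066). For TFB1M this change was about as large as the one in RPMI without the block. ESRRA, at 57.2, 57.6 and 66.8 CPM with vehicle and 48.8, 53.9 and 63.6 CPM with quizartinib, was called in neither fit. Its log2 change was -0.13 (SE 0.23, adjusted p = 0.78). TFB2M was also called in neither fit.

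The difference between the media in the quizartinib effect was tested directly as an interaction. PPRC1 was called, with a quizartinib effect that was 2.15 log2 units less negative in hBMSC-CM than in RPMI (SE 0.43, adjusted p = 0.0032), against 1.96% of all genes called. PPRC1 stayed called in each of 21 refits without 1 culture, with the difference between 1.84 and 2.36. In the blocked fit 4 of the 10 genes were called, beside 9.83% of all genes. These were PPRC1 (2.06, SE 0.21, adjusted p = 1.4e-08), POLRMT (0.89, SE 0.18, adjusted p = 0.0010), TFAM (0.78, SE 0.25, adjusted p = 0.044) and UCP2 (-0.66, SE 0.20, adjusted p = 0.029). UCP2 had the opposite sign to the others. Without the block, the differences were 0.94 for POLRMT (SE 0.54, adjusted p = 0.62), 0.77 for TFAM (SE 0.41, adjusted p = 0.55) and -0.61 for UCP2 (SE 0.43, adjusted p = 0.77).

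**Figure D2:**
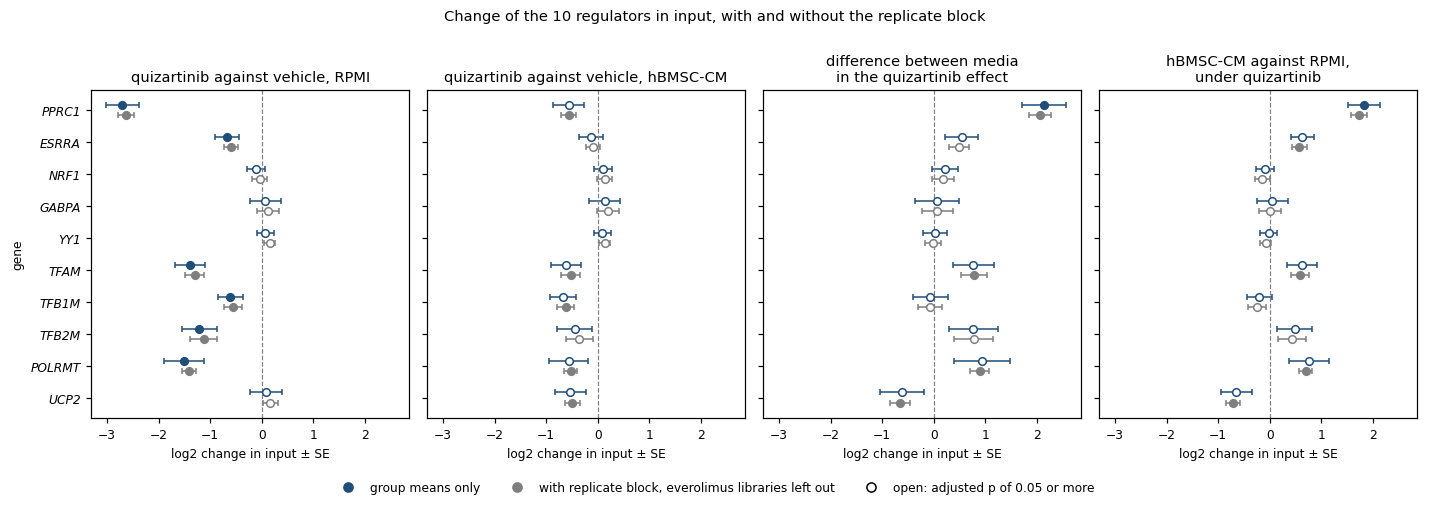
Log2 change in input with its SE for the 10 genes in 4 comparisons, from the fit with group means only (blue) and from the blocked fit (grey), with filled points where the adjusted p was under 0.05. The point of PPRC1 moved from -2.70 in RPMI to -0.56 in hBMSC-CM, and more points were filled in grey than in blue in the last 3 panels.

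Without drug, hBMSC-CM against RPMI gave 0 of 10 calls in edgeR, limma voom, DESeq2 and the blocked fit, 0 at an unadjusted p under 0.05, and 1.51% of all genes were called (7.03% in the blocked fit). The changes ran from -0.32 for PPRC1 (SE 0.30, adjusted p = 1.0) to 0.10 for ESRRA (SE 0.23, adjusted p = 1.0). Under quizartinib, PPRC1 was higher in hBMSC-CM than in RPMI, by 1.83 log2 units (SE 0.31, adjusted p = 7.2e-05) or 3.55-fold, with no overlap between 48.9 to 98.7 and 16.5 to 24.2 CPM. It was the only member called there by edgeR, limma voom and DESeq2, beside 8.16% of all genes. The blocked fit added 4 calls of members and called 23.1% of all genes. ESRRA was higher by 0.58 (SE 0.14, adjusted p = 0.0024), TFAM by 0.59 (SE 0.18, adjusted p = 0.015) and POLRMT by 0.70 (SE 0.13, adjusted p = 0.00011), while UCP2 was lower, at -0.71 (SE 0.14, adjusted p = 0.00022). UCP2 was at 99.7, 105 and 99.6 CPM under quizartinib in RPMI and at 58.8, 61.6 and 73.7 CPM in hBMSC-CM, without overlap. The stromal genes without COL1A1 summed to 7.19 to 8.56 CPM in hBMSC-CM quizartinib input and to 1.86 to 5.50 CPM in hBMSC-CM vehicle, and their part in these values was not tested.

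Adding everolimus to quizartinib asks what mTOR inhibition does beyond FLT3 inhibition. In RPMI it gave 0 of 10 calls (edgeR, limma voom, DESeq2 and the blocked fit, 0 at an unadjusted p under 0.05), and 0.00773% of all genes were called (0.0232% in the blocked fit). The level of PPRC1 in RPMI combo was 15.4, 15.1 and 16.6 CPM, and its log2 change against quizartinib was -0.35 (SE 0.30, adjusted p = 1.0). In hBMSC-CM, edgeR, limma voom and DESeq2 also called 0 of 10, with 1 gene, PPRC1, at an unadjusted p under 0.05 in edgeR, and 0.24% of all genes were called. PPRC1 was at 24.5, 37.4 and 57.6 CPM in hBMSC-CM combo, each below the quizartinib culture of its number, with a log2 change of -0.84 (SE 0.30, adjusted p = 0.41). The blocked fit, which called 4.68% of all genes here, called it lower at -0.83 (SE 0.15, adjusted p = 0.00046). It also called POLRMT lower at -0.48 (SE 0.13, adjusted p = 0.023), from 64.2, 79.4 and 88.1 CPM to 50.7, 55.7 and 55.1 CPM. Between these groups, the stromal genes without COL1A1 went from 7.19 to 8.56 CPM up to 9.24 to 15.6 CPM, and the MOLM-13 markers from 1786 to 2143 CPM down to 1496 to 1786 CPM, and their part in the result was not tested.

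Everolimus alone in hBMSC-CM gave 0 of 10 calls against vehicle in edgeR, limma voom and DESeq2, and 0.41% of all genes were called. At an unadjusted p under 0.05, edgeR gave 2 members, NRF1 at 0.39 (SE 0.18, adjusted p = 0.52) and TFAM at -0.59 (SE 0.29, adjusted p = 0.57). PPRC1 was at 106, 104 and 109 CPM, inside the vehicle range of 86.4 to 120 CPM. The blocked fit has no value for this comparison, since it leaves these libraries out.

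Lists of genes that act beside the members were counted in the same fit. They were written from general knowledge with earlier results of these data known. Of 17 tested genes of mitochondrial DNA replication and the nucleoid, 7 fell and 0 rose upon FLT3 inhibition in RPMI, with a list median of -0.23 log2. TWNK, the helicase of mitochondrial DNA, changed by -2.78 (SE 0.26, adjusted p = 2.8e-10), and ATAD3A, a nucleoid-associated membrane ATPase, by -2.74 (SE 0.28, adjusted p = 1.3e-09). ATAD3A has a close paralog, ATAD3B, so reads of the pair may be split. Of 24 genes of mitochondrial transcription elongation, termination and RNA processing, 10 fell and 0 rose, with a median of -0.69. They included PNPT1, a mitochondrial RNA-degrading enzyme, at -2.05 (SE 0.28) and SLIRP, which stabilises mitochondrial messages, at -1.76 (SE 0.31). Of 14 genes of mitochondrial rRNA modification, the enzyme class of TFB1M, 9 fell and 0 rose, with a median of -0.57. MRM1, a methyltransferase of the large mitochondrial rRNA, changed by -2.47 (SE 0.34, adjusted p = 4.9e-07). These counts stand against the 34.6% of all genes called in either direction, the 18% called lower, and the median of 0.08 over all genes. Calls in the blocked fit were 10 of 17 (2 higher), 13 of 24 (0 higher) and 12 of 14 (1 higher), against its 54.6% of all genes.

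The messages made from mitochondrial DNA were counted beside them. Of the 13 mRNAs of mitochondrial DNA, edgeR, DESeq2 and limma voom called 0 upon FLT3 inhibition in RPMI, with 0 at an unadjusted p under 0.05, a median of 0.29 and 1 of 13 below 0. The blocked fit called 4 of the 13, 3 of them higher and 1 lower, a smaller share than its 54.6% of all genes. In hBMSC-CM these tools and the blocked fit called 0. Together these mRNAs took 2.53% to 8.53% of the input counts of a library. In the 6 conditions other than everolimus alone this share was highest in replicate 1. In RPMI vehicle it was 6.38%, 2.56% and 3.05% in replicates 1, 2 and 3. Poly(A) selection was used, so the amounts of mitochondrial messages depend on their short tails, and mitochondrial DNA was not measured.

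In hBMSC-CM, 4 of 17 replication genes, 3 of 24 transcription and RNA processing genes and 0 of 14 rRNA modification genes fell under quizartinib. There 12.3% of all genes were called in either direction, and 885 of 12939 were called lower. The blocked fit called 7 (1 of them higher), 9 and 8 of them, against its 34.9% of all genes. For the last list in hBMSC-CM, DESeq2 called 0, limma voom called 2 and edgeR had 5 at an unadjusted p under 0.05. The difference between media was called for TWNK (1.99, SE 0.35, adjusted p = 0.00066), ATAD3A (1.40, SE 0.37, adjusted p = 0.034) and MRM1 (1.69, SE 0.46, adjusted p = 0.043), each with the less negative effect in hBMSC-CM. Without the block this difference was called for 2 of 17, 0 of 24 and 1 of 14 genes of the lists, beside 1.96% of all genes. In the blocked fit it was called for 4, 4 and 5 genes, beside 9.83% of all genes.

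PPARGC1A, the best known PGC-1 coactivator, was below the filter, with 0 to 40 counts per library and a median of 8, so its changes were not detectable at this depth. PPARGC1B, the remaining family member, was at 26.6, 30.5 and 27.8 CPM in RPMI vehicle and at 8.58, 10.8 and 7.58 CPM under quizartinib, a log2 change of -1.65 (SE 0.32, adjusted p = 8.7e-05). In hBMSC-CM it was at 24.1, 20.2 and 18.9 CPM with vehicle and at 16.3, 13.95 and 16.7 CPM with quizartinib, a log2 change of -0.43 (SE 0.31, adjusted p = 0.40). Its difference between media was 1.23 (SE 0.44, adjusted p = 0.20), which the blocked fit called (adjusted p = 0.0012).

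Of the 17 tested partners of the members, 3 rose and 4 fell upon FLT3 inhibition in RPMI, with a median of 0.13, a share near the 34.6% of all genes called. In the blocked fit 11 of the 17 were called, 7 of them higher, beside 54.6% of all genes. SIRT3, a mitochondrial deacetylase, rose by 0.95 (SE 0.22, adjusted p = 0.0010) and RXRA, a nuclear receptor partner, by 0.79 (SE 0.16, adjusted p = 0.00014). KAT2A, an acetyltransferase of PGC-1 coactivators, fell at -1.39 (SE 0.26, adjusted p = 6.9e-05), and so did HCFC1, a coactivator that binds GABP and PGC-1 proteins, at -0.74 (SE 0.21, adjusted p = 0.0064). RPTOR, the scaffold of the mTORC1 kinase complex, fell at -0.57 (SE 0.18, adjusted p = 0.014), a call lost without RPMI quizartinib replicate 1 or RPMI vehicle replicate 2, while MTOR itself was at -0.51 (SE 0.35, adjusted p = 0.28). GABPB1, the partner subunit of GABPA, was at -0.36 (SE 0.21, adjusted p = 0.19) and the deacetylase SIRT1 at 0.22 (SE 0.27, adjusted p = 0.57). Of UCP2's relatives, UCP1 was at 0 in all 42 libraries and SLC25A27 had at most 4 counts. SLC25A30 fell in RPMI (-0.88, SE 0.27, adjusted p = 0.010), the 1 of 3 tested relatives that was called.

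Heavy polysome was then set against input within each condition. This value measures how reads are shared among messages in each library, and says nothing of the amount of RNA on polysomes. Values per culture pair the input and polysome libraries of the same number, though the labels do not say that these share a lysate. The test itself did not use this pairing. ESRRA and NRF1 were higher in heavy polysomes and GABPA was lower in all 7 conditions, and POLRMT was higher in 6 of 7. TFB1M, TFB2M and UCP2 were called in 0 of 7. Most genes are called in this comparison, so the count of members reads against a high background. In RPMI, 4 of 10 members were called for vehicle (3 of them higher, where 31.5% of all genes were called higher and 65.4% in either direction), 4 of 10 for quizartinib (57.9% of genes) and 6 of 10 for combo (59.3%). In hBMSC-CM the members called were 5 of 10 for vehicle (63.6%), 4 of 10 for quizartinib (58.7%), 3 of 10 for everolimus (58.6%) and 6 of 10 for combo (63%).

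NRF1 had the most even shift. In RPMI vehicle it was at 14.2, 13.5 and 15.4 CPM in input and at 39.9, 31.3 and 33.5 CPM in heavy polysomes, with no overlap. The log2 difference was 1.00 to 1.28 over the 7 conditions (largest adjusted p = 1.7e-05), and the value per culture was 0.72 to 1.49 in all 21 cultures. ESRRA was at 58.8, 58.9 and 52.2 CPM in input and at 161, 151 and 113 CPM in heavy polysomes in RPMI vehicle. Its difference was 0.75 to 1.32 (largest adjusted p = 0.0061), and all 21 cultures were above 0. The call of ESRRA in hBMSC-CM everolimus was lost without that condition's replicate 3, and in hBMSC-CM combo without its replicate 2.

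GABPA lay on the other side. In RPMI vehicle it was at 22.0, 18.7 and 16.8 CPM in input and at 7.76, 8.01 and 7.35 CPM in heavy polysomes. Its difference was -1.76 to -1.01 (largest adjusted p = 0.0052), and 0 of 21 cultures were above 0. The smallest of these differences, in hBMSC-CM quizartinib, was not called without replicate 2 of that condition, where input and polysome libraries overlapped. GABPA (chromosome 21, 25734570 to 25772460, plus strand) shares 692 exonic bases with ATP5PF on the other strand. GABPB1 also was lower in heavy polysomes in RPMI vehicle, at -1.07 (SE 0.21, adjusted p = 5.7e-05), as were MTOR at -1.96 (SE 0.37) and SIRT1 at -1.64 (SE 0.28), while HCFC1 was higher at 0.71 (SE 0.21) and RPTOR at 0.84 (SE 0.18). Without RPMI vehicle replicate 1 these 2 values were 0.39 and 0.51, and the call of HCFC1 was lost. In the blocked fit they were 1.17 and 1.36, and with library size as the only scaling neither was called.

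POLRMT had the largest and the most variable difference. In RPMI vehicle it was at 107, 144 and 136 CPM in input and at 510, 367 and 163 CPM in heavy polysomes. The difference was 1.29 to 1.90 in the 6 conditions where it was called, and 0.55 in hBMSC-CM everolimus (SE 0.38, adjusted p = 0.21). Leaving out replicate 1 of RPMI vehicle, of hBMSC-CM vehicle or of hBMSC-CM quizartinib ended the call in that condition. TFAM was lower in heavy polysomes in hBMSC-CM vehicle (-0.69, SE 0.29, adjusted p = 0.036) and hBMSC-CM combo (-0.93, SE 0.29, adjusted p = 0.0061). The call in hBMSC-CM vehicle was lost without its replicate 1 or 2 and in DESeq2 and limma voom. PPRC1 was higher in RPMI combo (1.16, SE 0.31, adjusted p = 0.0017) and hBMSC-CM combo (0.75, SE 0.30, adjusted p = 0.029), where 6 of 21 refits without 1 culture lost the second call. YY1 was higher in RPMI combo (0.44, SE 0.16, adjusted p = 0.022), a call that 7 of 21 such refits lost.

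The blocked fit called PPRC1 higher and TFAM lower in heavy polysomes in all 6 conditions it covers, with PPRC1 at 0.50 to 1.38 and TFAM at -1.38 to -0.71. POLRMT was at 1.97 to 2.47 in it. YY1 was called higher in 3 of the 6 conditions, at 0.37 in RPMI quizartinib, 0.54 in RPMI combo and 0.30 in hBMSC-CM combo. With it, the members called in RPMI were 6 of 10 for vehicle (72.4% of all genes), 7 for quizartinib (69.8%) and 7 for combo (70%). In hBMSC-CM they were 6 for vehicle (72.3%), 6 for quizartinib (69.1%) and 7 for combo (72.2%). These shares of members were near or below those of all genes. The scaling between fractions moved these values more than those in input. With library size as the only scaling, the median of all genes shifted by -0.55 to -0.28 log2 across the 7 conditions, and the share of called genes that were higher went from between 46.6% and 53.9% to between 26.0% and 41.8%. NRF1 (0.59 to 0.91) and GABPA (-2.31 to -1.47) were still called in 7 of 7 conditions, and ESRRA (0.43 to 0.82) and POLRMT (0.22 to 1.52) in 6 of 7. TFAM and TFB1M were then called lower in 5 of 7 conditions each, at -1.36 to -0.39 and -0.79 to -0.28 over all 7. PPRC1 changed sign in some conditions, between -0.50 and 0.89.

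**Figure D3:**
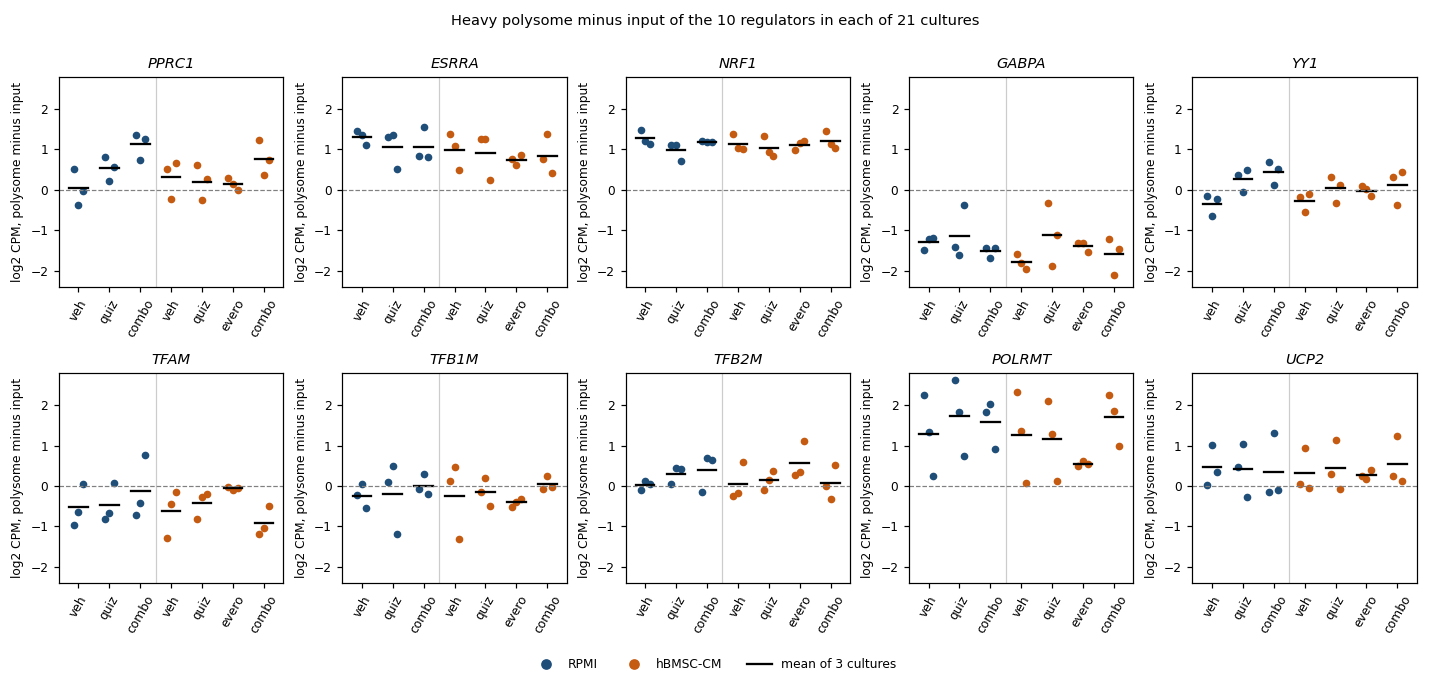
Log2 CPM in heavy polysomes minus input for each culture (1 point per culture, bar at the mean of 3), by condition and medium, with the dashed line at no difference. All 21 points of NRF1, ESRRA and POLRMT lay above 0, all 21 of GABPA lay below, and the 3 POLRMT points of hBMSC-CM everolimus lay between 0.50 and 0.61.

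Whether a treatment or medium moved the members on polysomes beyond the change in input was tested as the interaction with the fraction. In 8 comparisons, edgeR, limma voom and DESeq2 called 0 of the 10 genes, and so did the blocked fit in the 7 comparisons it covers. Among all genes, 1.55% were called for quizartinib against vehicle in RPMI and 0% in each of the other 7 comparisons, where 93 to 624 of 12939 genes had an unadjusted p under 0.05, limma voom called 0 and DESeq2 0 to 20. The blocked fit called 14% of all genes for quizartinib in RPMI, 1.07% for hBMSC-CM against RPMI under quizartinib, 1.13% for the difference between media, 0.00773% for combo in hBMSC-CM and 0% in the other 3 it covers. Only 1 member reached an unadjusted p under 0.05 in any of the 8, YY1 for quizartinib in RPMI. YY1 was at 89.9, 124 and 104 CPM in input and 80.3, 78.8 and 89.9 CPM in heavy polysomes with vehicle, and at 102, 129 and 102 CPM and 132, 125 and 143 CPM with quizartinib. The polysome change exceeded the input change by 0.62 (SE 0.23, adjusted p = 0.18, unadjusted p = 0.012). A fit with the replicate number as a block within each fraction and all libraries kept called it (adjusted p = 0.019), and the blocked fit without everolimus did not (adjusted p = 0.058).

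These comparisons leave wide intervals. For quizartinib in RPMI, plus or minus 2 SE reached from -0.36 to 1.34 for PPRC1, from -0.60 to 1.55 for POLRMT, from -0.76 to 0.87 for TFAM and from -0.78 to 0.22 for NRF1. For the difference between media in the quizartinib effect on polysomes, the interval was -1.84 to 0.56 for PPRC1 and -0.54 to 0.88 for NRF1.

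Replicate numbers marked the same spread in several members. In heavy polysomes, POLRMT was lowest in replicate 3 in 6 of 6 conditions other than everolimus alone and highest in replicate 1 in 5 of 6, while in input it was lowest in replicate 1 in 6 of 6. UCP2 and TFB1M were highest on polysomes in replicate 2 in 6 of 6 conditions. PPRC1 was highest in input in replicate 3 and lowest on polysomes in replicate 2, each in 6 of 6. TFAM and GABPA were lowest in input in replicate 3 in 6 of 6 conditions. In RPMI, POLRMT on polysomes went from 510 CPM with vehicle to 247 CPM with quizartinib in replicate 1, from 367 to 191 CPM in replicate 2 and from 163 to 71.8 CPM in replicate 3. It was lower in every pair, while the groups as a whole overlapped. The labels do not say what the numbers share.

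**Figure D4:**
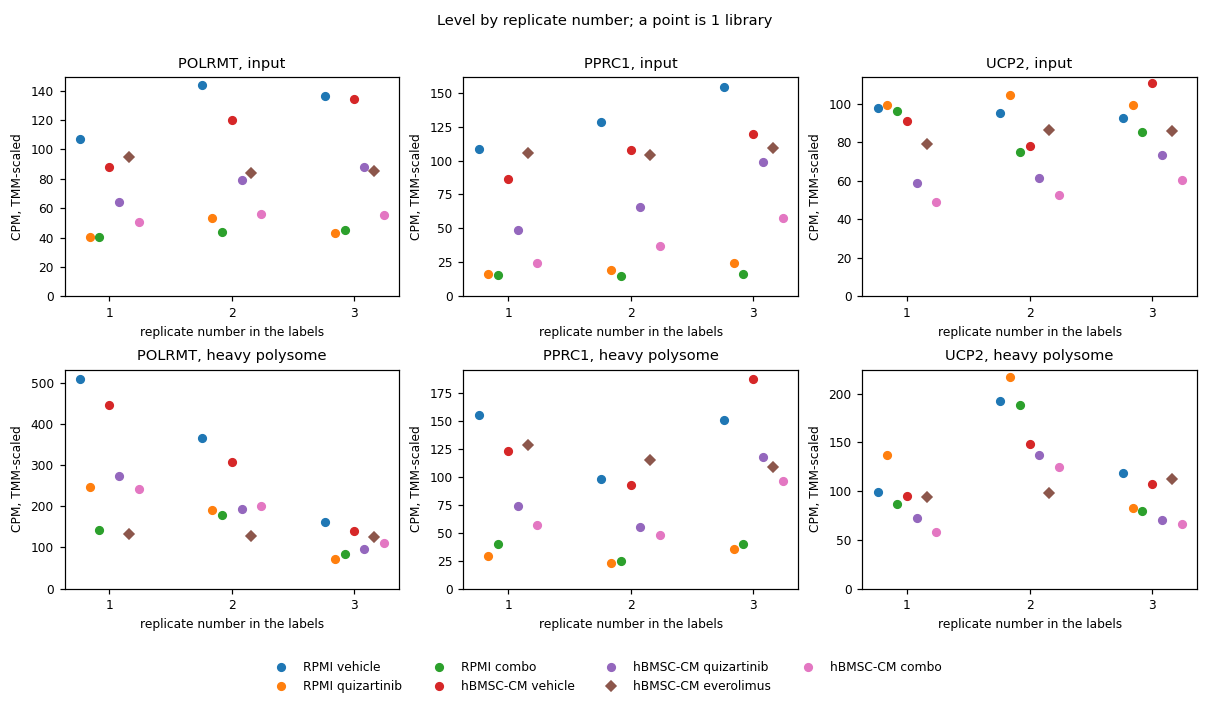
CPM of POLRMT, PPRC1 and UCP2 in input (top) and heavy polysomes (bottom) by replicate number, 1 point per library, coloured by condition, with diamonds for hBMSC-CM everolimus. POLRMT on polysomes was lowest in replicate 3 and UCP2 highest in replicate 2 in all 6 conditions drawn as circles, while the diamonds of POLRMT lay at 125 to 134 CPM.

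The members whose input means spanned at least 1 log2 unit over the 7 conditions were PPRC1 (3.04), TFAM (1.62), POLRMT (1.58) and TFB2M (1.30). For each, the genes most like it were those with the smallest mean absolute difference of centred log2 CPM over 21 input libraries, which share conditions, depth and replicate numbers. They were RRP1 (0.18), BYSL (0.19) and RRS1 (0.20) for PPRC1, whose own mean absolute deviation was 1.07. For POLRMT they were EIF3B (0.088), TAGLN2 (0.11) and GRPEL1 (0.12), for TFAM they were PGK1 (0.19), SLC38A1 (0.20) and TFB2M (0.20), and for TFB2M they were EIF4E (0.19), NUP153 (0.20) and TFAM (0.20). Over these libraries, TFAM and TFB2M were thus among the 3 nearest genes of each other. Over the 7 condition means alone they were not, as TFB2M ranked 48 for TFAM and TFAM ranked 213 for TFB2M. The nearest genes over those means were others, TFAP4 (0.047) and TWNK (0.097) for PPRC1.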

How the data were processed

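Counts of 42 poly(A) RNA-seq libraries were analysed. Per the study's methods, the authors sequenced pairs on a NovaSeq6000, trimmed adapters with BBDuk (reads under 50 bases removed), and aligned to hg38 (Ensembl 96) with STAR 2.6.0a, which also gave the counts. The authors deposited raw counts per gene, not normalized, and the strand setting is not stated. Intervals reflect the spread between libraries, and reads carried no molecular identifiers. Every column was matched by name, and rows sharing a gene name were summed.

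Tests used edgeR 4.0.16 in R 4.3.3: 1 robust quasi-likelihood fit over 42 libraries with 14 group means, TMM factors (0.705 to 1.25), no block (the study's model named none), 12939 genes (mean of at least 1 count and 1 CPM) and Benjamini-Hochberg adjustment over them, called under 0.05. Polysome comparisons between conditions were the interaction with the fraction. CPM are TMM-scaled, except the sums over marker genes, and log2 CPM used a prior count of 2. Scripts were tested on simulated data.

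The pairing of replicate numbers was checked by correlating deviations from group means across genes, before calls were compared. Same-numbered libraries of 1 fraction correlated over 0.1 in every pair of the 6 conditions other than everolimus alone, while input and polysome libraries of 1 condition correlated at -0.0438 to 0.303. Alternatives were limma voom 3.58.1, DESeq2 1.42.0, RLE factors, library size only, no filter, a stricter filter (mean of 10 CPM), the compared groups only, replicate blocks and each culture left out. The members and lists were chosen with earlier results of these data known. All 10 members are named, with 7 partners, up to 3 called genes per list and direction, and the 3 genes most like each member that spanned 1 log2 unit. Positions and exon lengths are from GENCODE v44 (GRCh38), matched by Ensembl identifier or symbol.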

Additional observations from a re-analysis of the deposited data

Results flagged for a closer look

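The quizartinib effect on PPRC1 in input differed between the media, and the test of this difference itself passed the threshold. The effect was 2.15 log2 units less negative in hBMSC-CM than in RPMI (SE 0.43, adjusted p = 0.0032 by edgeR), with -2.70 in RPMI and -0.56 in hBMSC-CM. In hBMSC-CM with quizartinib the 3 cultures spread from 48.9 to 98.7 CPM, in RPMI from 16.5 to 24.2 CPM.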

How the results depend on the processing

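Over all alternatives, 0 of the called changes of members turned direction. Of the refits of the count of members called, 22 moved it by over 1.5 times or away from 0 and 703 did not. The replicate numbers pair the libraries of 6 conditions. For quizartinib in hBMSC-CM the count was 1 with a replicate block over all libraries, 5 with a block within each fraction and 5 with that block and the everolimus libraries left out. For hBMSC-CM against RPMI under quizartinib these were 2, 5 and 5, with 2 by library size only and 4 in the compared groups only. For combo against quizartinib in hBMSC-CM they were 1, 1 and 2, and for the difference between media in input 2 and 4 with the last 2 blocks. For polysome relative to input, quizartinib in RPMI, the block within each fraction gave 1. Polysome against input gave 7 by library size only in RPMI vehicle, 7 with both blocks within each fraction in RPMI quizartinib, and 7 in the compared groups only and 5 with the block within each fraction in hBMSC-CM everolimus. The blocks changed no count of members in the other comparisons by over 1.5 times.

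Leaving out 1 culture gave 4 to 6 members for quizartinib in RPMI, 0 to 1 in hBMSC-CM (1, TFB1M, without RPMI quizartinib replicate 3 or hBMSC-CM vehicle replicate 2) and 3 to 5 for polysome against input in hBMSC-CM vehicle (3 without its replicate 1). The stricter filter removed TFB2M. Over all genes, the block without everolimus raised the calls from 4477 to 7070 for quizartinib in RPMI and from 1591 to 4517 in hBMSC-CM, and the cause was not tested. With 3 cultures a group the intervals of members not called are wide, and the number of heavy polysomes per cell was not measured.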
